A study of Mus musculus with 4 samples.

Results

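The regions described here are 254 RNA polymerase II (Pol II) peaks of osteoblasts given OSS_128167 that lay where 2 protein-coding genes almost touch. They were selected on the readout itself, because each had to be a row of the OSS_128167 peak list, on chromosomes 1 to 19 and under 1000 bp long. Its interval also had to come within 1000 bp of both facing boundaries of 2 genes that do not overlap and are at most 1000 bp apart. The 254 peaks were 0.623% of the 40748 peaks in that list, and they lay at 230 of the 2014 gene pairs that lie this close in the RefSeq table of the mm10 assembly (GRCm38.p6). Pairs were divided by strand into divergent pairs, whose 5′ ends face each other, convergent pairs, whose 3′ ends face each other, and tandem pairs, in which the 3′ end of one gene faces the 5′ end of the next. There were 28 peaks at divergent pairs, 101 at convergent pairs, 61 at tandem pairs and 65 at pairs in which the strand of a gene was not matched, with 1 peak counted in 2 classes because it serves 2 pairs.

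The study profiled Pol II by chromatin immunoprecipitation and sequencing (ChIP-seq) in primary mouse osteoblasts, labelled young, that were grown out of bone fragments as mesenchymal stem cells and then held in osteogenic medium for 3 days. One Pol II library and one input library carry titles of WT osteoblasts, called untreated here, and one of each carry titles of osteoblasts treated with OSS_128167, an inhibitor of the deacylase SIRT6. The treatment field names OSS_128167 for all 4 samples, so the untreated group rests on the titles, and no dose, exposure time, sex, strain or number of animals is given. The growth protocol describes removal of cells that did not attach, and no sorting. Each condition is 1 library without a replicate, and no test between conditions was made.

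Both peak lists are 1 row per peak with the authors' fold enrichment, p-value, false discovery rate (FDR) and pileup, the height of stacked signal. The untreated list holds 1694 peaks, and neither list gives read totals, so the depth of each library is unknown. Of 10 osteoblast marker genes, 5 had an OSS_128167 peak, among them the transcription factors Runx2 and Sp7 and the collagen genes Col1a1 and Col1a2. Of 8 macrophage markers 4 had one, of 5 endothelial markers 3, of 5 chondrocyte markers 2 and of 5 adipocyte markers 0. Over all coding genes the share with a peak over the gene or within 1000 bp was 39.3%, and lists of 5 to 10 genes cannot be told from it. A peak in these lists does not measure RNA, and the part of other cell types in the results was not tested.

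Pol II starts transcription at the 5′ end of a gene, often pauses shortly after it, copies the gene, and runs past the cleavage site at the 3′ end before it leaves the template. Where genes lie close together these zones meet. A divergent gap is a promoter shared by a pair of genes, a convergent gap is a place where polymerases on opposite strands run toward each other, and in a tandem gap the termination zone of one gene runs into the promoter of the next.

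The gap is the shared promoter at divergent pairs, and the gaps of 20 divergent pairs with a peak were short enough, at most 300 bp, to be read whole from the promoter sequences. The following 10 were chosen because they are the pairs of histones, of ribosomal proteins and of highest fold, with 1 respiratory chain pair, that are named among the results. Each sequence is the + strand of GRCm38.p6, credited to RefSeq, from the base after the left gene to the base before the right gene. Capitals mark the CCAAT box (CCAAT or its reverse complement ATTGG), the GC box (GGGCGG or CCGCCC) and the TATA box (TATAAA or TTTATA).
H2ac12/H2bc12 chr13:22035644-22035820: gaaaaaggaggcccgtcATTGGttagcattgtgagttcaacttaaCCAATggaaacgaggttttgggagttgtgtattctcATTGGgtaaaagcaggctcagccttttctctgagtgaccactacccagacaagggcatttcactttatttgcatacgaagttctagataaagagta
H2ac11/H2bc11 chr13:22042950-22043197: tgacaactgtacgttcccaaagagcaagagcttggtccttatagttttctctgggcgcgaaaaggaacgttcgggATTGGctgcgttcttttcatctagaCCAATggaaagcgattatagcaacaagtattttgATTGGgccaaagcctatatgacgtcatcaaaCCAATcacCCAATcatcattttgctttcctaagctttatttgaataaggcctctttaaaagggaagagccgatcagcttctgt
H2ac22/H2bc22 chr13:21787249-21787482: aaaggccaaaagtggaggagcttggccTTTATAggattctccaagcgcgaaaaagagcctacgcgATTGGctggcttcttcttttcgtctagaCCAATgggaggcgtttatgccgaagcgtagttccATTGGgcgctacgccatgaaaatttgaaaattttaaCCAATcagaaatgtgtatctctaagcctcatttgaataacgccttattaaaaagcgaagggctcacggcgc
H2bc13/H2ac13 chr13:21716184-21716411: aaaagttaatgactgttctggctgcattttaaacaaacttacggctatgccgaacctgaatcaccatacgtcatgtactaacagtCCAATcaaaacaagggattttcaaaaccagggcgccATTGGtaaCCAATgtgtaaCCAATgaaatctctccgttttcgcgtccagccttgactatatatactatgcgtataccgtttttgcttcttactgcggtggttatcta
Mrps12/Sars2 chr7:28741822-28741956: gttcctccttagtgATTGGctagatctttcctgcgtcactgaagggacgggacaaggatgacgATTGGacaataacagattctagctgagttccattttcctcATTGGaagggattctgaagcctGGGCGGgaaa
Lrsam1/Rpl12 chr2:32961655-32961711: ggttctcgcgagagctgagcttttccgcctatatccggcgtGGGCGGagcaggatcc
Ppp1r15a/Plekha4 chr7:45526269-45526329: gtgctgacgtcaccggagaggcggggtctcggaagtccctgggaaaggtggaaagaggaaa
Rps27/Rab13 chr3:90213649-90213714: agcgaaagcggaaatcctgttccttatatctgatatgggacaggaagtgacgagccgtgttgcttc
Cbx5/Hnrnpa1 chr15:103239905-103239942: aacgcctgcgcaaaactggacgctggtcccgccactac
Sdhd/Timm8b chr9:50603850-50603900: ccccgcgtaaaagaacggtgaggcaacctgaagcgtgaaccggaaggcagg

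A CCAAT box was present in 11 of the 20 short divergent gaps with a peak (55%), against 28.2% of the 433 short divergent gaps without one whose sequence could be read, of 443. The GC box was in 7 of the 20 (35%) and in 38.8% of the 433, and the TATA box in 1 of the 20 (5%), the gap of H2ac22 and H2bc22, and in 1.62% of the 433. All 4 histone gaps above hold CCAAT boxes on both strands, whereas the gaps of Ppp1r15a/Plekha4, Rps27/Rab13, Cbx5/Hnrnpa1 and Sdhd/Timm8b hold none of the 3 motifs. Those 4 histone gaps, of 177 to 248 bp, are among the 11. Pairs counted as without a peak include histone pairs, such as H2bc23/H2ac23, that had a peak of 1000 bp or more. The difference in CCAAT share was not tested. The median gap length was 79.5 bp with a peak and 79 bp without, and the median GC content 60.7% and 63.8%. Over a fixed length of 250 bases before a gene's start, CCAAT was found in 63.8% of the 47 promoters of divergent genes with a peak, in 42.5% of the 1047 of divergent genes without one, and in 36.3% of all 16457 promoters. For the GC box these shares were 57.4%, 60.9% and 43.6%, and for the TATA box 6.38%, 5.06% and 12.5%. Both strands were searched, motifs that shared bases were each counted, and the promoters of a divergent pair share bases. A match describes letters in a window and is not a bound site.

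With the reach of 1000 bp, peaks were listed most often where 3′ ends face each other and least often where 5′ ends do. A peak was present at 86 of 422 convergent pairs (20.4%, exact Clopper-Pearson 95% interval 16.6 to 24.5), at 58 of 448 tandem pairs (12.9%, 9.98 to 16.4) and at 26 of 565 divergent pairs (4.60%, 3.03 to 6.67). Over all 2014 pairs the share was 11.4%, and at the 579 pairs with an unmatched strand it was 10.4%. The interval of the divergent pairs overlapped neither of the other 2, and that of the convergent pairs lay above that of the tandem pairs by a narrow margin. These intervals cover the counting of pairs in 1 library only, neighbouring pairs are not independent, and the presence of a peak is what selected the regions, so the shares are a description. Counting peaks of any length, the shares were 22.7% of convergent, 16.5% of tandem and 6.55% of divergent pairs. With a reach of 250 bp the order of convergent and tandem pairs turned, at 4.27% and 4.91%.

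The classes differ in gap length, with medians of 100 bp for divergent, 381 bp for convergent and 452.5 bp for tandem pairs, and the window in which a peak can be near both genes narrows as the gap grows. Among gaps of at most 300 bp, 38 of 177 convergent pairs (21.5%), 29 of 154 tandem pairs (18.8%) and 20 of 468 divergent pairs (4.27%) had a peak. Above 300 and up to 600 bp the shares were 24.3% of 136 convergent, 9.56% of 136 tandem and 4.55% of 66 divergent pairs. Above 600 and up to 1000 bp they were 13.8% of 109, 10.1% of 158 and 9.68% of 31, and the 3 intervals overlapped. Convergent pairs thus had the highest share and divergent pairs the lowest in each range of gaps, with little separation in the widest. At gaps of at most 300 bp the intervals of convergent (15.7 to 28.3) and tandem pairs (13.0 to 25.9) also overlapped. Only above 300 and up to 600 bp were they apart, at 17.3 to 32.4 and 5.19 to 15.8.

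**Figure D1:**
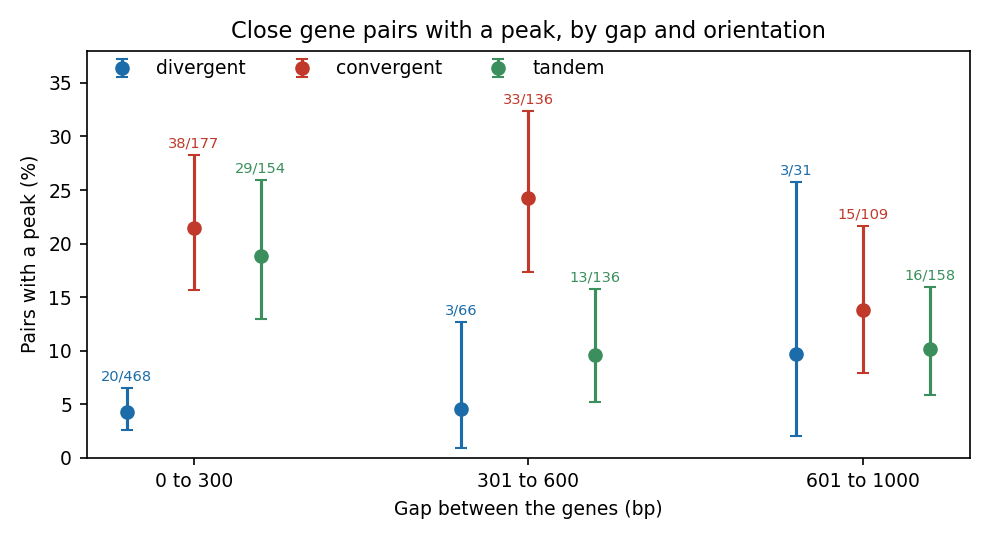
Share of close gene pairs with an OSS_128167 Pol II peak under 1000 bp (vertical axis, percent) by the gap between the genes (horizontal axis, bp) and orientation. Points are shares with exact 95% intervals, and labels give pairs with a peak over all pairs. The divergent points lie lowest in each range, at 4.27%, 4.55% and 9.68%.

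Gene ends that were not a facing boundary of a close pair, called without a close neighbour, gave the level against which the paired ends were set. A peak under 1000 bp lay within 1000 bp of 9.87% of 14941 such 3′ ends (9.40 to 10.4) and of 4.19% of 14711 such 5′ ends (3.88 to 4.53). Of the 838 3′ ends that face another 3′ end, 205 had one (24.5%, 21.6 to 27.5), which is above the share at 3′ ends without a close neighbour. Of the 1120 5′ ends that face another 5′ end, 52 had one (4.64%, 3.49 to 6.04), an interval that overlaps that of 5′ ends without a close neighbour. In tandem pairs, 61 of 444 3′ ends (13.7%, 10.7 to 17.3) and 69 of 442 5′ ends (15.6%, 12.4 to 19.3) had a peak, and the 5′ ends there were far above other 5′ ends.

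The order was the same among peaks whose FDR was 0.05 or lower. Shares then stood at 7.40% of 3′ ends facing a 3′ end and 2.79% of 3′ ends without a close neighbour, 1.61% of 5′ ends facing a 5′ end and 1.34% of 5′ ends without a close neighbour, and 4.73% of 3′ and 5.43% of 5′ ends in tandem pairs. An end that faces another gene has a second gene within reach, so a peak of either gene can be counted for it. The facing ends of a pair can both count the same peak, so these ends are not independent and their intervals can be too narrow.

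**Figure D2:**
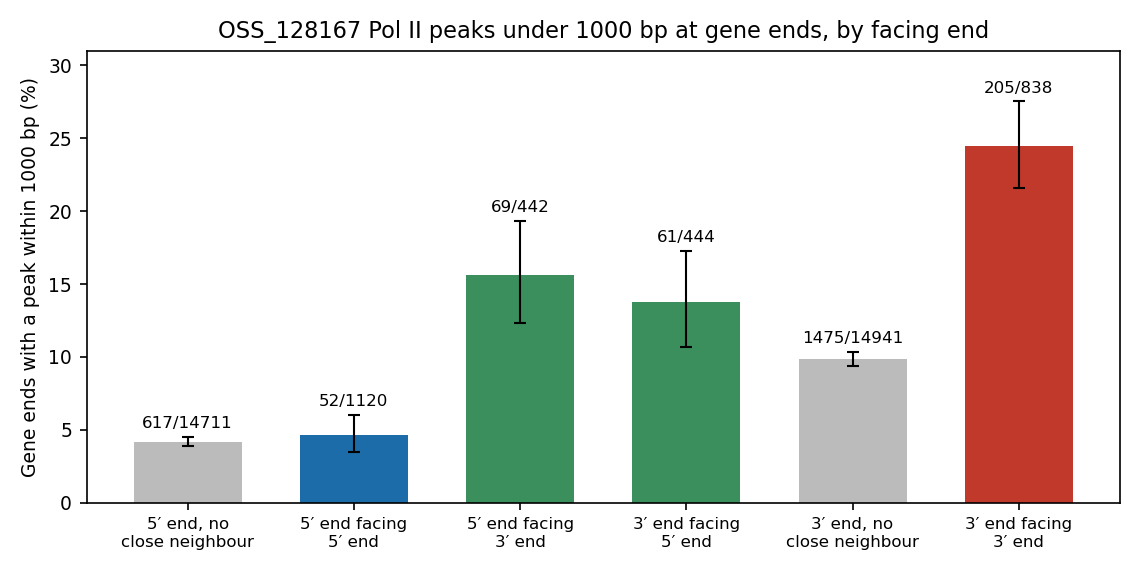
Share of gene ends with an OSS_128167 peak under 1000 bp within 1000 bp (vertical axis, percent) for 5′ and 3′ ends by what they face. Bars start at 0, error bars are exact 95% intervals, and labels give ends with a peak over all ends. The bar of 3′ ends facing 3′ ends stands at 24.5% and that of 5′ ends facing 5′ ends at 4.64%.

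The centre of a peak was in the gap at 15 of 101 convergent peaks, 11 of 61 tandem peaks and 1 of 28 divergent peaks, that of Gart, a purine synthesis enzyme, and Son, a splicing cofactor. The rule allows centres over a window much wider than the gap, and the gap took up on average 18.3% of that window at convergent, 19.98% at tandem and 11.3% at divergent peaks. The observed shares of centres in the gap were 14.9%, 18.03% and 3.57%, and the exact interval of each held the share of the window, so no placement beside the gap is read from them. The interval touched the gap at 5 of 28 divergent peaks (17.9%), 32 of 101 convergent (31.7%) and 24 of 61 tandem peaks (39.3%), where the gap and interval lengths give 30.8%, 38.7% and 41.0% of the window. The classes differ in gap length, and their shares are not compared with each other. The median distance of the centre from the gap midpoint was 552.75 bp at divergent and 543 bp at convergent pairs. At convergent pairs 86 of 101 centres lay inside one of the genes (85.1%), and these were 148.5 to 1371 bp past the 3′ end of the other gene, with a median of 820.75 bp. A centre inside either gene is past the other's 3′ end by geometry, and the rule bounds the distance. No placement is read from these values either.

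Tandem peaks were not placed evenly along the direction of transcription. Their centres lay in the downstream gene at 37 of 61 peaks (60.7%), in the gap at 11 and in the upstream gene at 12, and 1 lay before the upstream gene. Thus 48 of 61 (78.7%, 66.3 to 88.1) were past the 3′ end of the upstream gene, by a median of 591.5 bp. That stretch includes the gap, 19.98% of the window on average, so more of the window lies past that end than before it. The same stretch holds the start of the downstream gene, so polymerase that had run past one gene and polymerase that had started on the next cannot be told apart there. At divergent pairs, the 27 centres outside the gap lay 52 to 1067 bp past a start, with a median of 467.5 bp, and 6 of the 28 peaks were also within 1000 bp of a 3′ end. Any centre outside a divergent gap is past a start, and the rule bounds the distance, so no placement is read from it.

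Around ends without a close neighbour, peak centres were denser after a 3′ end than before it. There were 665 centres in the 1000 bp before and 821 in the 1000 bp after such 3′ ends. The density rose from 9.70 centres per 1000 ends in the last 250 bp of the gene to 17.3 per 1000 ends from 750 to 1000 bp past it. At such 5′ ends the counts were 230 before and 365 after, with the highest density, 8.02 centres per 1000 ends, in the first 250 bp of the gene.

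**Figure D3:**
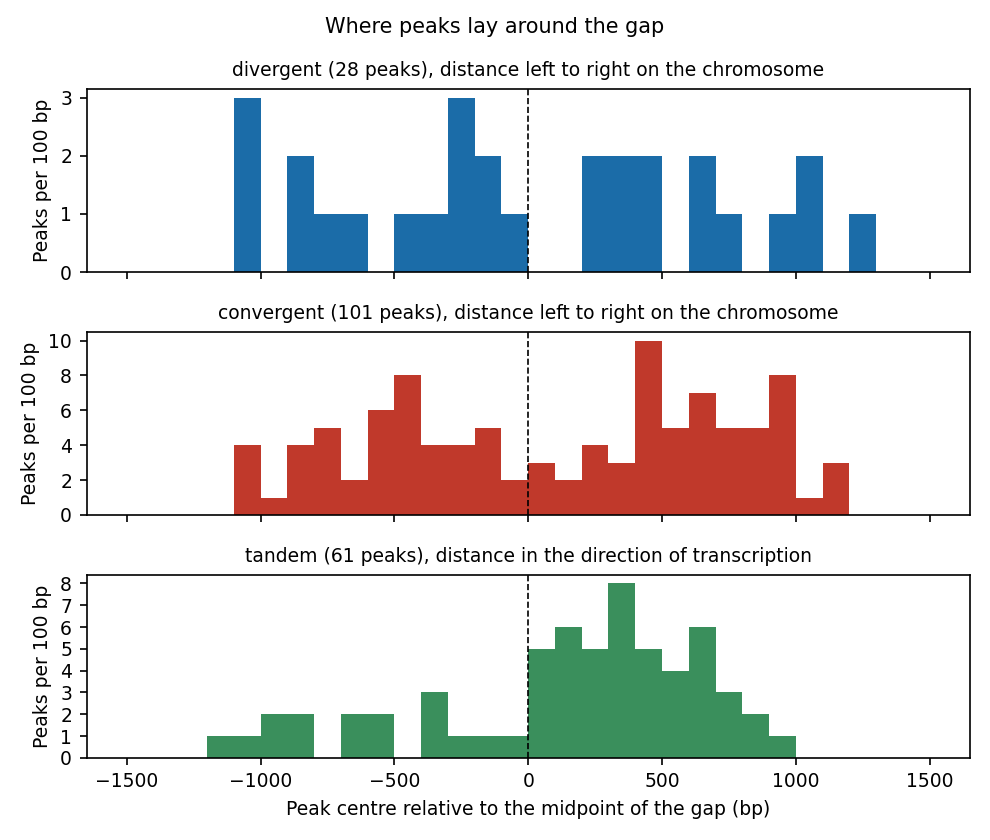
Number of peak centres per 100 bp (vertical axis) by distance from the midpoint of the gap (horizontal axis, bp) for divergent, convergent and tandem pairs. Tandem distances run in the direction of transcription, and their bars are tallest to the right of the dashed midpoint, where the downstream gene lies.

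In height the peaks at close pairs were like other peaks at gene ends, and all of these are the authors' values. Fold enrichment ran from 1.79 to 8.59 with a median of 2.93 (quartiles 2.62 and 3.41), beside a median of 2.93 over 2817 peaks at other coding gene ends and 2.87 over the 39355 peaks under 1000 bp. The median pileup was 10, the range 5 to 39, and the median length 357 bp. An FDR of at most 0.05 was listed for 77 of the 254 (30.3%, 24.7 to 36.4), against 14.8% of all peaks under 1000 bp and 26.7% (25.1 to 28.4) of peaks at other gene ends. Most of the peaks were therefore listed with an FDR above 0.05, a limit set here and not by the authors, whose own threshold is unknown. By class, 10 of 28 divergent (35.7%), 23 of 101 convergent (22.8%), 21 of 61 tandem (34.4%) and 23 of 65 peaks with an unmatched strand (35.4%) had such an FDR, and median folds were 2.87, 2.89, 3.08 and 2.93. Convergent pairs were thus the most often listed, with the smallest share of peaks at that FDR, although the intervals of the 4 classes overlapped.

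**Figure D4:**
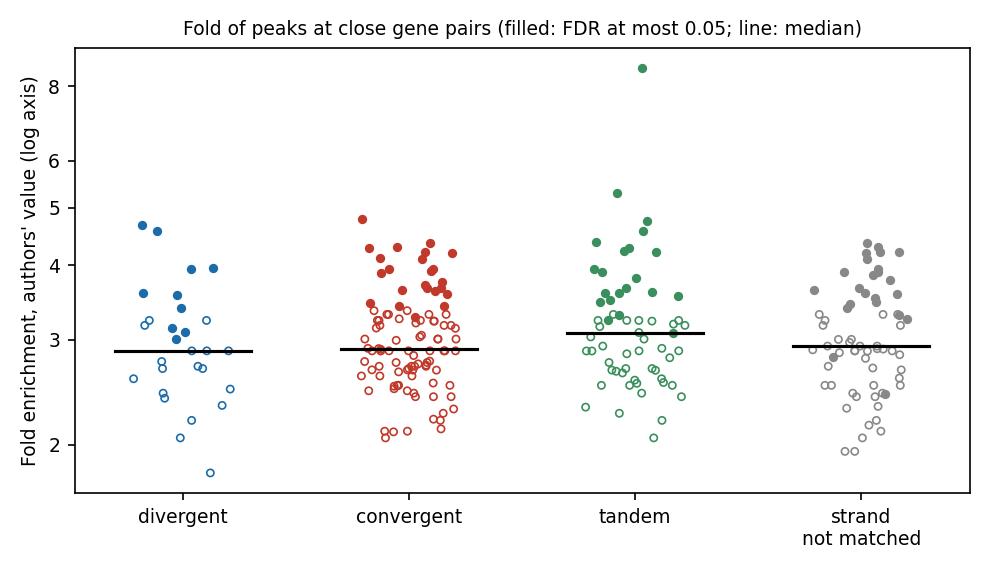
The authors' fold enrichment (vertical log axis) of each peak at a close gene pair by orientation, with FDR of at most 0.05 filled and the median as a line. The highest is the H2ac18/H3c14 peak at 8.59, and the medians of the 4 classes lie between 2.87 and 3.08.

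Among tandem pairs the highest value belonged to core histone genes. The peak beside H2ac18 and H3c14, which encode H2A and H3 histones, at chr3:96245074-96245733 had a fold of 8.59, an FDR of 4.98e-18 and a pileup of 30. It covered the 5′ boundary of H2ac18, a gene of 556 bp, and its centre lay before that gene. The next was over the start of Hax1, whose product guards mitochondria against apoptosis, downstream of Ubap2l, at chr3:89998291-89999053 with a fold of 5.30 and an FDR of 6.56e-08. The centre lay 44 bp inside Hax1. The peak between Rpl4, of the large ribosomal subunit, and Snapc5, a subunit of the complex that activates small nuclear RNA genes, had a fold of 4.76 and an FDR of 3.71e-07 at chr9:64178936-64179902. Its centre was 122 bp inside Snapc5. The peak of greatest pileup, 39, was at Rpl41, another large subunit gene, and Zc3h10 at chr10:128548717-128549233, with a fold of 4.57 and an FDR of 7.03e-12. It covered the 5′ boundary of Rpl41, the upstream gene of that pair, which is only 1059 bp long. Other tandem peaks were at the paralogs Akap8 and Akap8l, nuclear anchoring proteins of protein kinase A (4.37), at Foxred2 and the translation initiation factor gene Eif3d (4.27), and at Qrich1 and Impdh2, an enzyme of guanine nucleotide synthesis (4.23).

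Convergent peaks were lower at the top. The highest was at chr15:99084334-99084629, inside C1ql4, which encodes a secreted C1q-like protein, where it meets Troap, a gene of a spindle-associated protein. Its fold was 4.79 and its FDR 0.000150, with a gap of 676 bp. At Selenom, which encodes a selenoprotein of the endoplasmic reticulum, and Smtn, which encodes the cytoskeletal protein smoothelin, a fold of 4.37 was listed 818 bp inside Smtn. At Ntmt1, a protein methyltransferase gene, and Asb6 both genes held a peak, of 4.30 and 2.61, and at Tns2, the focal adhesion gene tensin 2, and Spryd3 likewise, of 4.28 and 3.01. Of the 230 pairs, 206 had 1 peak, 22 had 2 and 2 had more. Mrnip, a DNA repair factor gene, and Sqstm1, the gene of the autophagy receptor sequestosome, converge with a gap of 35 bp and had 4 peaks, with folds from 3.03 to 3.75 and 2 in each gene. The other, Smc4, a condensin subunit gene, and Trim59, had 3, from 2.89 to 4.22. Smc4/Trim59 is of unmatched strand, and the other highest pairs of that kind were Tmem223/Tmem179b, whose fold of 4.37 (FDR 0.000105) ranked ninth of all, Nop53/Ehd2 at 4.30 and Mtss2/Il34 at 4.21.

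Divergent peaks were few. Their distances below are from the outermost annotated start, and no placement is read from them. Ppp1r15a, which encodes a phosphatase subunit of the integrated stress response, and Plekha4 have a gap of 61 bp, and both peaks there were in Ppp1r15a. The one with a fold of 4.58 (FDR 0.000167) was centred 139.5 bp past the start and touched the gap, and the one with a fold of 4.67 (FDR 0.000406) was centred 971 bp past it. Between Cbx5, which encodes a heterochromatin protein, and Hnrnpa1, an RNA-binding splicing regulator, the gap is 38 bp, and the peak, with a fold of 3.96 and an FDR of 3.36e-05, was centred 1019 bp into Hnrnpa1. Rps27, of the small ribosomal subunit, and Rab13, a small GTPase, had a peak centred 122.5 bp into Rps27 with a fold of 3.14 and an FDR of 0.000665. At Ints13, an Integrator subunit, and Fgfr1op2 the fold was 3.57 at 982 bp into Fgfr1op2. Med29, of the Mediator complex, and Paf1, of the elongation complex named after it, had a peak of 3.23, which did not reach that FDR (0.159), and which touched the gap.

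The 4 divergent histone pairs all lie in the cluster on chromosome 13 and are those whose gaps open the set of sequences. H2ac12/H2bc12 had a fold of 3.95 (FDR 0.0120), H2ac11/H2bc11 of 3.59 (FDR just under 0.05), H2ac22/H2bc22 of 3.23 (FDR 0.159) and H2bc13/H2ac13 of 2.87 (FDR 0.377). The first 2 peaks covered the 3′ boundary of the H2A gene, which is 522 bp long in H2ac12 and 472 bp in H2ac11, and the fourth was centred past the end of H2bc13. None of these 4 shorter peaks touched the gap, but each pair also had a peak of 1000 bp or more, left out by the limit on length. That longer peak entered the gap at H2ac11/H2bc11 (fold 6.49), H2bc13/H2ac13 (6.47) and H2ac22/H2bc22 (5.75), while at H2ac12/H2bc12 (5.48) it lay over H2bc12 beside the gap. For genes this short, a peak within 1000 bp of the start can lie at the other end of the gene. In all, 5 peaks of known orientation covered such a far boundary, those at H2ac12 and H2ac11, at H2ac18 and Rpl41, and the lower peak of Rps21/Cables2, with a fold of 2.10. The gene table gives H2bc22 a length of 14079 bp, so its peak, centred 491.5 bp past the start, counts as inside the gene.

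**Figure D5:**
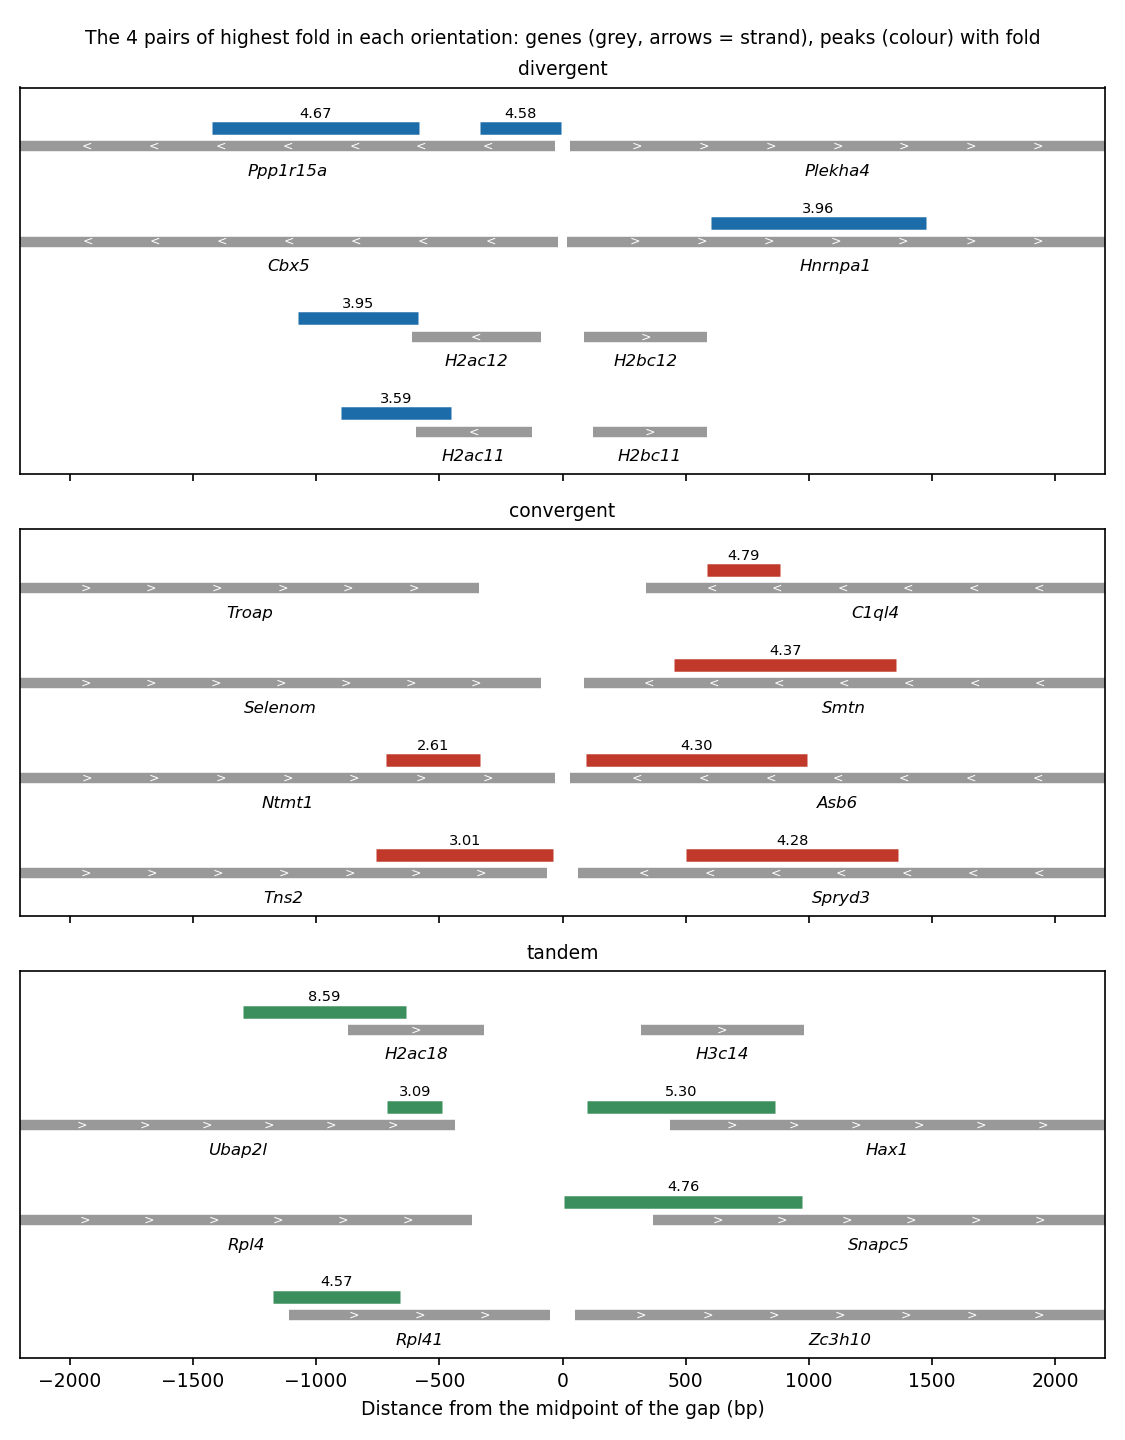
Gene pairs of highest fold in each orientation drawn to scale around the gap midpoint (horizontal axis, bp), with genes in grey, arrows for strand and peaks in colour with the authors' fold. Tandem pairs run in the direction of transcription. Of the divergent peaks drawn, those of H2ac12 and H2ac11 stand at the 3′ end of that gene.

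By gene group, pairs with a cytosolic ribosomal protein gene were the most often listed among groups with at least 14 pairs. A peak was at 12 of 29 such pairs (41.4%, 23.5 to 61.1), beside 11.4% of all pairs. These were 3 of 6 convergent, 3 of 5 tandem and 2 of 9 divergent pairs, with 4 of unmatched strand. Rpl4 is counted with Snapc5 and with Zwilch, and Rps27 with Nup210l and with Rab13, so the pairs are not independent. The group also counts Rpl7l1, a gene named as Rpl7-like. After Rpl4/Snapc5 and Zc3h10/Rpl41 the highest were Rps21/Cables2, convergent, with folds of 4.19 in Cables2 and 2.10 in Rps21, 2310039H08Rik/Rpl7l1 at 3.92 and Mtif2/Rps27a at 3.78. Rpl7a/Surf1, also convergent, had a peak in each gene, of 3.28 in Surf1 and 2.72 in Rpl7a. The lowest fold of all 254 peaks, 1.79, was at the divergent pair Lrsam1/Rpl12, 467.5 bp into Rpl12, with an FDR of 0.641 and a pileup of 23.

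Histone pairs had a peak under 1000 bp at 5 of 29 (17.2%, 5.85 to 35.8), of which 4 were among the 10 divergent histone pairs. That count depends on the limit on length, because 28 of the 29 pairs (96.6%, 82.2 to 99.9) had a peak of 1000 bp or more, against 3.33% of all close pairs. Several of these longer peaks were counted for more than a single histone pair. The peak at chr13:23571254-23577751, for example, was counted for H2bc7/H2ac7, H2ac8/H2bc8 and H2ac7/H3c4. The histone pairs are therefore not independent, and the interval of their share can be too narrow. With peaks of any length, histones stood at 28 of 29 and cytosolic ribosomal protein pairs at 17 of 29 (58.6%, 38.9 to 76.5), against 13.8% of all pairs.

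For the other groups with at least 14 pairs, the intervals of the share with a peak under 1000 bp all held the 11.4% of all pairs. A peak was at 4 of 14 pairs with a chaperone gene (28.6%, 8.39 to 58.1), among them the chaperonin gene Cct5 beside Cmbl at 4.21 and the co-chaperone gene Dnaja1 beside Aptx at 3.01. It was at 4 of 15 with an aminoacyl-tRNA synthetase (26.7%, 7.79 to 55.1), with Aars/Exosc6 the highest at 3.48. Splicing factors had 3 of 22 (13.6%), mitochondrial ribosomal proteins 4 of 34 (11.8%), Pol II pausing and elongation factors 2 of 17 (11.8%) and proteasome subunits 2 of 20 (10%). Genes of the respiratory chain had 2 of 44 (4.55%, 0.555 to 15.5), one of them Sdhd, of succinate dehydrogenase, beside the mitochondrial import gene Timm8b at 2.71. DNA repair and replication genes had 1 of 33 (3.03%, 0.0767 to 15.8), the helicase gene Mcm7 with Cops6 at 3.05. Only 2 pairs held an immediate early gene, and 1 had a peak under 1000 bp, Jund/Iqcn at 3.17. Both of these pairs had a peak of 1000 bp or more. No peak was at the 5 pairs with a gene of efferocytosis, nor at the 6 with a sirtuin gene, counts too small to read, and none of the 32 osteoblast and matrix genes is in a close pair.

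Of 12 textbook pairs of genes with a shared promoter, 6 met the spacing, and the other 6, among them Hspd1/Hspe1 and Col4a1/Col4a2, overlap in this gene table. Mrps12/Sars2, a mitochondrial ribosomal protein and a mitochondrial seryl-tRNA synthetase, had a peak of 2.76 in Mrps12 with an FDR of 0.314. Atm/Npat, Mcm4/Prkdc, Tap1/Psmb9, Pdcd10/Serpini1 and Brca1/Nbr1 had none under the rule. A count of 1 in 6 does not set these pairs apart from the 4.60% of all divergent pairs or the 11.4% of all close pairs.

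Pairs with a peak at the gap often had peaks elsewhere over the same genes. Another OSS_128167 peak overlapped either gene at 71 of 86 convergent pairs with a peak (82.6%, 72.9 to 89.9) and at 180 of 336 without (53.6%, 48.1 to 59.0), with median lengths of the longer gene of 24450.5 and 24339.5 bp. Tandem pairs showed 43 of 58 (74.1%) against 157 of 390 (40.3%), with such median lengths of 17930 and 16483.5 bp. At divergent pairs the shares were 14 of 26 (53.8%) and 315 of 539 (58.4%), with median lengths of 23032 and 29826 bp. The far ends of divergent pairs are 3′ ends, and a peak within reach of one was listed for 16 of 26 pairs with a peak (61.5%, 40.6 to 79.8) and 143 of 539 without (26.5%, 22.8 to 30.5). The far ends of convergent pairs are 5′ ends, and there the shares were 29.1% and 13.7%. For short genes 1 peak can count at both ends.

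Longer peaks, left out by the limit on length, were higher. At close pairs 62 peaks of 1000 bp or more were listed, at 67 pairs, with a median fold of 5.24. As given above, they include nearly all histone pairs, with folds of 22.8 over H2ac18/H3c14 and 15.1 over H3c15/H2ac19, and 19 of the 67 pairs also had a peak under 1000 bp. They were at 15 of 565 divergent, 17 of 422 convergent, 21 of 448 tandem and 14 of 579 pairs of unmatched strand. Histone pairs made up 9 of the 15 divergent pairs. The tandem peak at H2ac18 that leads the shorter peaks lies next to the longer one at the same pair.

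No peak of the untreated list overlapped any of the 254 (0 of 254, which allows a share of up to 1.18%), and the share over all OSS_128167 peaks under 1000 bp was 0.15%. At the rate of the whole list less than 1 overlap is reached among 254 peaks, so the 0 does not set these regions apart. The untreated list had 4 peaks at 3 close pairs, none of which held one of the 254. They were at Gm3417/9030025P20Rik (fold 4.44, FDR 0.329), at Gm51571/Gm51572 (4.05, FDR 0.0293) and, with 2 peaks of 2.29 and 2.65 and an FDR of 1, at the histone pair H3c13/H2bc18. That last pair lies under an OSS_128167 peak of 3305 bp with a fold of 9.44. The lists differ in length by the counts given above and in pileup scale, and the fold values of different lists were not compared.

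Peaks just inside and just outside each limit of the rule are given here with no test. The longest peaks kept were at Aars/Exosc6 (978 bp, fold 3.48), Smarcc2/Myl6 (974 bp, 4.12) and Rpl4/Snapc5 (967 bp, 4.76), and the shortest left out at Snx5/Mgme1 (1004 bp, 3.36), Smarcc2/Myl6 (1021 bp, 2.74) and E2f4/Elmo3 (1043 bp, 4.22). The peaks kept at the farthest reach were at Thap2/Zfc3h1 (989 bp), Nufip2/Cryba1 (978 bp) and Mup19/Mup-ps16 (971 bp), and the nearest beyond it at Sra1/Apbb3 (1008 bp), Zswim8/Ndst2 (1009 bp) and Rnf167/Pfn1 (1010 bp). The widest gaps kept were Tufm/Atxn2l (976 bp), Nup50/5031439G07Rik (972 bp) and Pmm2/Carhsp1 (971 bp), and the next beyond were Srsf10/Pnrc2 (1008 bp), Camsap3/Xab2 (1011 bp) and H2ac10/H3c8 (1039 bp). By chromosome the share of pairs with a peak ran from 3.45% on chromosome 12 to 21.4% on chromosome 3, and chromosome 11 held the most peaks, 35. A noncoding gene overlapped 13 of the 254 peaks (5.12%). The same share was not counted over all peaks under 1000 bp, so it is not read as high or low.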

How the data were processed

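Pol II ChIP-seq peak lists of 2 libraries were analysed, and the 2 inputs, which have no file of their own here, were not analysed as samples. Reads were processed with fastp and BWA on mm10, per the submitters' processing notes, with no version or role. Not given in the sources used here are the peak caller, its thresholds and its use of the inputs. Each peak's fold enrichment (a ratio), p-value and FDR come from the deposited list of its library, as computed by the authors, and only describe or filter peaks of that list. The deposited pileup is a signal height, whole in the OSS_128167 list and scaled in the untreated one. Lists were made per library.

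Gene boundaries came from RefSeq GRCm38.p6, for 20665 coding genes on chromosomes 1 to 19. Strand came from the RefSeq promoter table, which held 16457 of them and left 4208 without, so 1435 of 2014 close pairs had an orientation. Boundaries are the outermost annotated ones, so a start in use can lie inside them. The 254 peaks are at 442 genes, and 3 peaks serve 2 pairs. An end was without a close neighbour when it was not a facing boundary of a close pair. Ends of overlapping genes and far ends of short genes therefore count as such, though another coding gene can lie within 1000 bp. Overlap required 1 bp, and a share of 0 was bounded by 3 counts over the total.

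The members, gene lists and comparisons were chosen with earlier results of these data known. Named were the 10 peaks of highest fold, the 4 pairs of highest fold per orientation, pairs of the gene lists, known bidirectional pairs and the 3 regions on each side of every limit. A few further peaks were named after their values were seen. Intervals are exact (Clopper-Pearson, 95%) and cover counting only. Counting steps were tested on simulated intervals. Tools were scipy 1.17.1, pandas 2.3.3 and numpy 2.4.6 under Python 3.11.15, with matplotlib 3.10.9 for plots. No genome sequence was used, so gaps of convergent and tandem pairs are not printed. Alternatives varied the FDR, length, reach, gap, peak position, gene set and overlap.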

Additional observations from a re-analysis of the deposited data

How the results depend on the processing

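Of 48 alternative values, 31 stayed close to the main ones and 17 moved. Requiring an FDR of at most 0.05 left 77 peaks, at 3.77% of all pairs, 1.59% of divergent, 5.45% of convergent and 4.69% of tandem pairs. With no limit on peak length, 13.8% of all pairs and 16.5% of tandem pairs had a peak, and 42.4% of peaks had that FDR. A reach of 250 bp left 59 peaks, at 2.98% of all, 1.42% of divergent, 4.27% of convergent and 4.91% of tandem pairs, so the order of the last 2 turned. Gaps of at most 300 bp kept 135 peaks and gave 18.8% of tandem pairs. Peak centres in place of intervals gave 9.38% of all and 16.1% of convergent pairs. Divergent pairs had the lowest share under each alternative run, including genes of at least 2000 bp (3.62%), an alternative chosen after seeing the data. No paired analysis was possible because each condition has 1 library and the labels give no replicate numbers. The 0 overlaps with untreated peaks became 1 of 316 with no length limit. The limits are the single library per condition, the unknown depth and peak caller, FDRs above 0.05 for most peaks, and gene boundaries without transcript starts.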
